A study of Caenorhabditis elegans with 36 samples.

Results

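Total small RNAs of *mut-2* adults were compared with those of wild-type adults, gene by gene. The comparison used the input libraries, which were made from whole worm lysate before HRDE-1 was immunoprecipitated, and took 6 of the 36 libraries of the series. They were 3 inputs of *mut-2* and 3 of wild-type. The *mut-2* animals carried the allele *mut-2(ne298)* on chromosome I together with *hrde-1(tor125[GFP::3xFLAG::hrde-1])* on chromosome III, and the animals called wild-type carried the same tagged *hrde-1* and a functional *mut-2*. HRDE-1 is the nuclear Argonaute protein that carries inherited small RNAs in the germline, so neither strain was untagged. Both were 1-day-old adults grown for 68 h at 20 °C, with 3 biological replicates of each and 1 mutant allele. RNAs of small size were selected and treated with polyphosphatase so that 5′ triphosphorylated RNAs could be cloned. A pair of further comparisons read the same loss in animals that lacked another gene. *mut-2; hrde-2* animals, with *mut-2(ne298)* and *hrde-2(qe20)*, were set against *hrde-2(qe20)* animals. *simr-1 mut-2* animals, with *simr-1(cmp36)* and another *mut-2* allele, *cmp306*, were set against *simr-1(cmp36)* animals. Each group had 3 inputs and the same tagged *hrde-1*.

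MUT-2, also named RDE-3, is a nucleotidyltransferase of the Mutator foci, granules at the outside of germ cell nuclei. It adds untemplated poly(UG) tails to cleaved target RNAs, and RNA-dependent RNA polymerases use the tailed RNAs as templates for 22G-RNAs, small RNAs of antisense sequence that begin with guanosine. Worm-specific Argonautes called WAGOs bind 22G-RNAs made in this way and repress their targets, while 22G-RNAs bound by the Argonaute CSR-1 are made by EGO-1 on germline genes without the Mutator complex. In *C. elegans* the Argonaute ERGO-1 binds 26G-RNAs on a small set of recently duplicated genes, pseudogenes and long noncoding RNAs, and these primary small RNAs start the synthesis of Mutator-dependent 22G-RNAs.

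The inputs held 6099007, 6093746 and 8137188 counts on genes in *mut-2*, against 9711456, 8857632 and 6652279 in wild-type, and 1 count corresponded to between 0.123 and 0.164 RPM (counts per 1000000 counts on genes) in *mut-2* and between 0.103 and 0.15 in wild-type. Reads were counted without regard to strand or length, so a value is all small RNA that mapped to a gene's exons and not its mRNA, and RPM was not divided by gene length. A share of 26.6% of the features in the table has an exon that overlaps another gene, and their counts are uncertain. The log2 RPM of replicates correlated at 0.988 to 0.99 across genes in *mut-2* and at 0.961 to 0.982 in wild-type, and genes are not independent replicates. The names of all 3 *mut-2* libraries and of wild-type replicate 2 end in "-2". What the ending marks is not stated, and its part in the differences was not tested beyond the comparison without the other libraries. The header inside the table of wild-type replicate 2 carries the name of replicate 1, and the sample label was kept. Whole worms were used, so fewer cells of a type and less small RNA per cell cannot be told apart.

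The mutated gene was examined first. *mut-2* (WBGene00003499, chromosome I, 6356614 to 6358410) had 44.4, 45.4 and 43.3 RPM in *mut-2* inputs, against 33, 37.7 and 27.9 RPM in wild-type inputs. These are small RNAs on the gene, which the allele *ne298* need not remove, so they do not check the labels, and the fitted log2 change of 0.10 ± 0.15 (SE) did not pass the test (adjusted p = 0.58, edgeR's quasi-likelihood test with Benjamini-Hochberg adjustment). The tagged gene *hrde-1* had 398, 438 and 511 RPM in *mut-2*, against 315, 428 and 304 RPM in wild-type, and the groups overlapped (log2 change 0.03 ± 0.21, adjusted p = 0.906, same edgeR test).

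Small RNAs on 2526 genes were lower and those on 936 genes higher in *mut-2* than in wild-type. A gene was called when it changed at least 2-fold with an adjusted p of at most 0.05 (edgeR) and had at least 10 RPM on average in the higher genotype. The lower genes were 18.6% of the 13558 genes tested and 29.7% of the 8508 that reached 10 RPM, and the higher genes were 6.90% and 11%. The 3 *mut-2* values did not overlap the 3 wild-type values for 2510 of the lower and 930 of the higher genes, against 86.6% of all genes that reached 10 RPM. The falls were deep. The lower genes kept a median of 7.97% of their wild-type RPM (quartiles 2.89% and 21.6%), 1418 of them kept under 10%, 183 under 1%, and 178 kept 50% or more. In 116 of them every *mut-2* library had at most 3 counts. The rises were small by comparison: the higher genes had a median RPM fold of 2.89, 56 were over 5-fold and 10 over 10-fold. The plot of mean RPM per gene shows the falls spread over several powers of 10 and the rises close to a line.

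**Figure D1:**
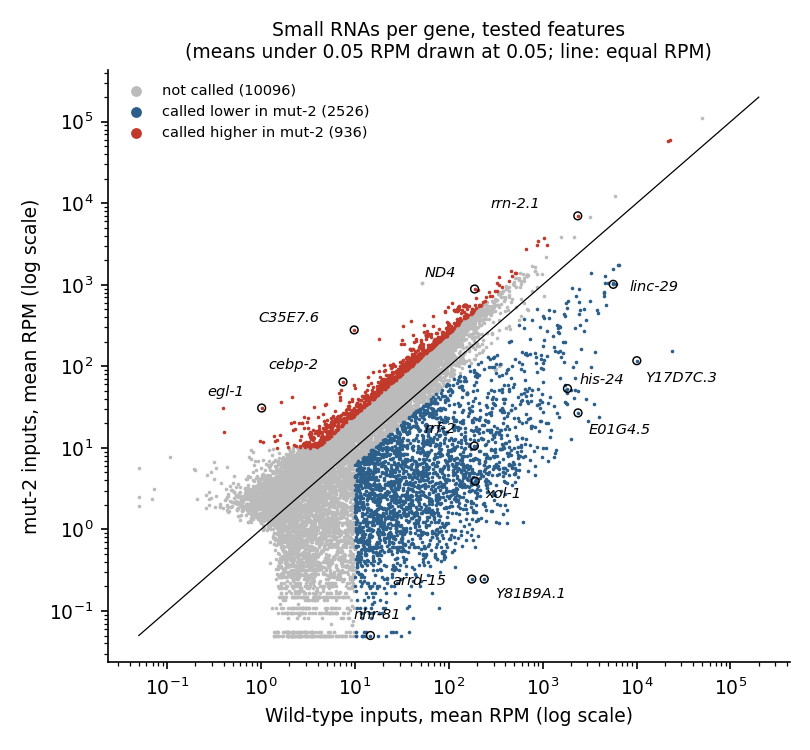
Mean RPM of 3 *mut-2* inputs (vertical) against 3 wild-type inputs (horizontal) for the 13558 tested features, both axes on a log scale, with points coloured by call and some genes of the text circled. The 2526 features called lower in *mut-2* scatter far below the line of equal RPM, and the 936 called higher form a band above it.

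The split between lower and higher genes depended on how the libraries were scaled. With TMM normalization, which centres the bulk of the genes, the median log2 change of all tested genes was -0.01, and 27% of the calls were higher. When counts were scaled by library size alone, as in RPM, the median moved by 0.33 to 0.32, the calls were 2343 lower (17.3% of genes tested, 27.5% of those with 10 RPM) and 2407 higher (17.8% and 28.3%), and 50.7% were higher. With reads mapped to the genome as the scale, the median was 0.24, and 2389 genes were lower and 2039 higher. All 2343 lower genes of the library-size fit were among the 2526, and all 936 higher genes of the TMM fit were among the 2407. The set of libraries also moved the rises. Without wild-type replicate 2, 2603 genes were lower and 1521 higher. With the 4 libraries whose names end in "-2" alone, 2552 were lower and 683 higher, and 2375 of the 2526 lower but 390 of the 936 higher genes were called again. In all 13 alternatives that tested every feature, 2054 genes stayed lower and 291 stayed higher. The 291 included 130 protein-coding genes, 43 tRNAs, 39 snoRNAs and 34 snRNAs.

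**Figure D2:**
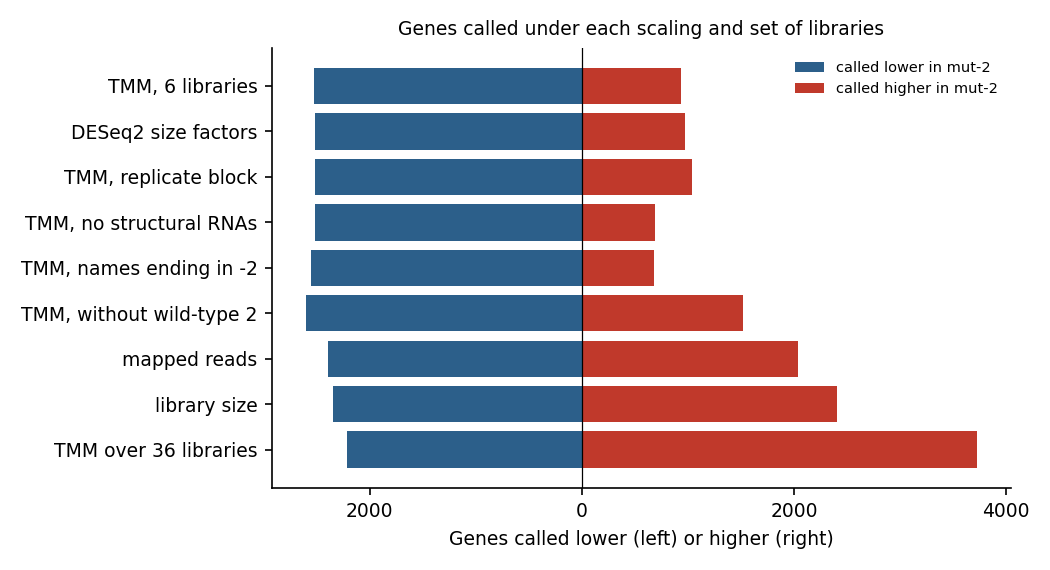
Number of genes called lower (to the left) and higher (to the right) in *mut-2* inputs under 9 scalings or sets of libraries. The lower count stays between 2215 and 2603, while the higher count runs from 683 to 3725.

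Most of the genes with abundant small RNAs in wild-type were lower in *mut-2*. Features were grouped by wild-type RPM alone, the genotype where lower genes are high. The shares below are therefore no test of whether dependence on MUT-2 goes with abundance. Of 115 tested features with at least 1000 RPM in wild-type, 103 (89.6%) were lower in *mut-2*, and of 332 with 300 to 1000 RPM, 226 were (68.1%). The share was 38.7% between 100 and 300 RPM, 23.8% between 30 and 100 RPM and 33.4% between 10 and 30 RPM. The 103 were 61 protein-coding genes, 29 pseudogenes, 8 lincRNAs, 4 ncRNAs and 1 antisense RNA. Of the 12 that did not fall, 5 were higher, namely the rRNA genes *rrn-1.1*, *rrn-1.2* and *rrn-2.1* and the mitochondrial genes *MTCE.16* and *ND5* (genes named here after their values were seen). The only protein-coding gene of the nuclear genome among the 12 was *snrp-200*, which encodes a spliceosomal helicase, with 2219 ± 164 RPM in *mut-2* and 1096 ± 230 RPM in wild-type (SD, n = 3 each), also named after its value was seen (log2 change 0.68, adjusted p = 0.0177, edgeR, under 2-fold).

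The makeup of the libraries shifted away from pseudogenes and lincRNAs. Pseudogenes took 3.46%, 3.57% and 3.46% of the counts in *mut-2*, against 13.2%, 12.12% and 11.98% in wild-type. LincRNAs took 0.404%, 0.422% and 0.352% in *mut-2*, against 6.19%, 5.02% and 4.76% in wild-type, a sum that was 13.6-fold lower. Neither class overlapped between the genotypes. Antisense RNA genes fell to 0.0626% ± 0.00126 in *mut-2*, against 0.171% ± 0.00409 in wild-type (SD, n = 3 each). Of the 15 with at least 10 RPM, 13 have an exon that overlaps another gene, and 2 of the 12 lower ones have none. Strand was not used, so small RNAs on these genes and on the genes they overlap cannot be told apart. Protein-coding genes together took 58.7% ± 1.88 in *mut-2* and 63.8% ± 4.66 in wild-type, which overlapped (p = 0.3, two-sided exact permutation test). RNAs of structural classes took more. rRNA had 28.9%, 23.6% and 24.04% of the counts in *mut-2*, against 7.43%, 9.38% and 15.4% in wild-type, snoRNA averaged 2.41% in *mut-2* and 1.09% in wild-type, and tRNA averaged 3.26% in *mut-2* and 1.70% in wild-type with no overlap. Genes of the mitochondrial genome had 1.71%, 2.37% and 1.86% in *mut-2*, against 0.535%, 0.621% and 0.645% in wild-type. Each of these classes apart from protein-coding genes gave p = 0.1 (exact permutation over libraries, two-sided), which is as small as 3 libraries a side can reach, with an adjusted p of 0.123 over 16 classes. Since shares sum to 100%, a larger share of structural RNA and smaller shares of the other classes cannot be told apart from each other. Counted without structural RNAs, protein-coding genes had 14.6 percentage points more in *mut-2* than in wild-type.

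**Figure D3:**
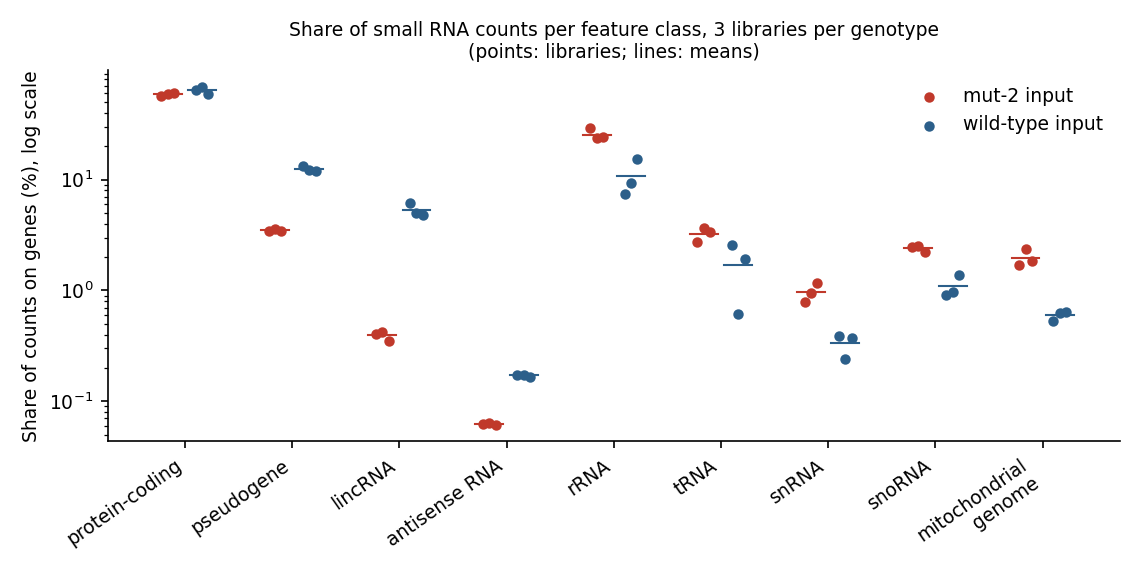
Percentage of the counts on genes that fell on each of 9 feature classes, on a log scale, with 1 point per library and a line at the mean of 3 libraries per genotype. LincRNA points lie between 0.352% and 0.422% in *mut-2* and between 4.76% and 6.19% in wild-type, and mitochondrial points lie between 1.71% and 2.37% in *mut-2* and between 0.535% and 0.645% in wild-type.

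Among lincRNA genes, 46 of 51 with at least 10 RPM were lower in *mut-2* and 1 was higher, against 29.7% and 11% over all features, and 32 of the 51 reached 10 RPM in wild-type only. The table holds 181 lincRNA genes, of which 67 were tested and 61 had a negative log2 change, with a median of -3.97 over the 67, against -0.01 over all tested genes. The lincRNA with the highest RPM, *linc-22* (WBGene00219699, chromosome X, 9069138 to 9073735), had 199, 169 and 95.5 RPM in *mut-2*, against 30353, 21133 and 20520 RPM in wild-type, and it has an exon that overlaps another gene. *linc-29* (WBGene00189951, chromosome IV, 6354024 to 6357243) kept more, with 1052, 1083 and 905 RPM in *mut-2*, against 4729, 7559 and 4648 RPM in wild-type (log2 change -2.82 ± 0.26, adjusted p = 8.05e-06, edgeR). T09F5.12, another lincRNA (WBGene00014836, chromosome V, 15164743 to 15166318), had 1070, 1112 and 945 RPM in *mut-2*, against 5428, 6298 and 5195 RPM in wild-type (log2 change -2.77 ± 0.20, adjusted p = 1.46e-06, edgeR). For each of the 3 lincRNAs every *mut-2* library lay below every wild-type library, *linc-22* by 155-fold in mean RPM and the other two by 5.57-fold and 5.41-fold.

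Among pseudogenes with at least 10 RPM 302 of 399 (75.7%) were lower and 16 higher, and 209 of the 399 reached 10 RPM in wild-type only. Of the 2102 pseudogenes in the table, 701 were tested, 571 of them with a negative log2 change. Y17D7C.3 (WBGene00045366, chromosome V, 18720589 to 18723771) showed the largest fall in RPM among called genes without an overlapping exon. It had 143, 129.8 and 78.5 RPM in *mut-2*, against 12453, 8559 and 9159 RPM in wild-type (log2 change -6.76 ± 0.33, adjusted p = 7.51e-08, edgeR). Every *mut-2* library lay far below every wild-type library, and the mean was 85.8-fold lower.

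The other genes with the 8 largest falls in RPM were protein-coding genes known only by a sequence name. B0250.8 (WBGene00007125, chromosome V, 20469703 to 20470485) had 1551, 1742 and 1400 RPM in *mut-2*, against 5660, 5539 and 5824 RPM in wild-type (log2 change -2.20 ± 0.20, adjusted p = 6.18e-06, edgeR). F37D6.3 (WBGene00009509, chromosome I, 10486714 to 10487322) had 564, 634 and 477 RPM in *mut-2*, against 4844, 4259 and 5022 RPM in wild-type (log2 change -3.42, adjusted p = 4.36e-07, edgeR). Their replicates lay close together in both genotypes, and 27.6% of the wild-type RPM of B0250.8 and 11.9% of that of F37D6.3 remained in *mut-2*. W03H9.2 (WBGene00012228, chromosome II, 14142949 to 14143874) had 691, 760.3 and 720.1 RPM in *mut-2*, against 4466, 4507 and 4374 RPM in wild-type, and W04A8.9 (WBGene00195155, chromosome I, 13853079 to 13853727) had 837, 901 and 738 RPM in *mut-2*, against 4628, 4438 and 4571 RPM in wild-type. Y47H10A.5 differed from these in how little was left. It is on chromosome I (WBGene00012961, 12095777 to 12097987), and it had 35.9, 19.2 and 15.7 RPM in *mut-2*, against 3164, 4983 and 3695 RPM in wild-type (log2 change -7.73 ± 0.43, adjusted p = 1.94e-07, edgeR), so that its mean was 167-fold lower.

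Some protein-coding genes lost nearly all of their small RNAs. Y81B9A.1 (WBGene00022315, chromosome X, 9192444 to 9194382) had 1, 2 and 2 counts in the *mut-2* libraries, against 293, 188 and 234 RPM in wild-type. The ratio of summed counts per library total was 978 in favour of wild-type (exact 95% interval 419 to 3014, counting error only). *arrd-15*, an arrestin domain gene (WBGene00014033, chromosome III, 8930036 to 8936682), also had 1, 2 and 2 counts in *mut-2*, against 208, 147 and 172 RPM in wild-type, a ratio of 721 (interval 309 to 2220). Y51A2A.6 (WBGene00013062, chromosome V, 18302714 to 18303506) had 0, 2 and 0 counts in *mut-2*, against 88.2, 62.1 and 84.0 RPM in wild-type. Its ratio of 792 had a wide interval (219 to 6547). *nhr-81*, a nuclear hormone receptor gene (WBGene00003671, chromosome I, 12328100 to 12329508), had no count in any *mut-2* library, against 15.8, 16.6 and 11.6 RPM in wild-type, and was at least 32.5-fold lower when each *mut-2* library was set to 3 counts. F11A6.15 and K09E3.2, the other two of the 6 largest falls by fitted fold, had 1 count each over the 3 *mut-2* libraries, against 31.1 ± 10.5 and 27.4 ± 8.20 RPM in wild-type (SD, n = 3).

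**Figure D4:**
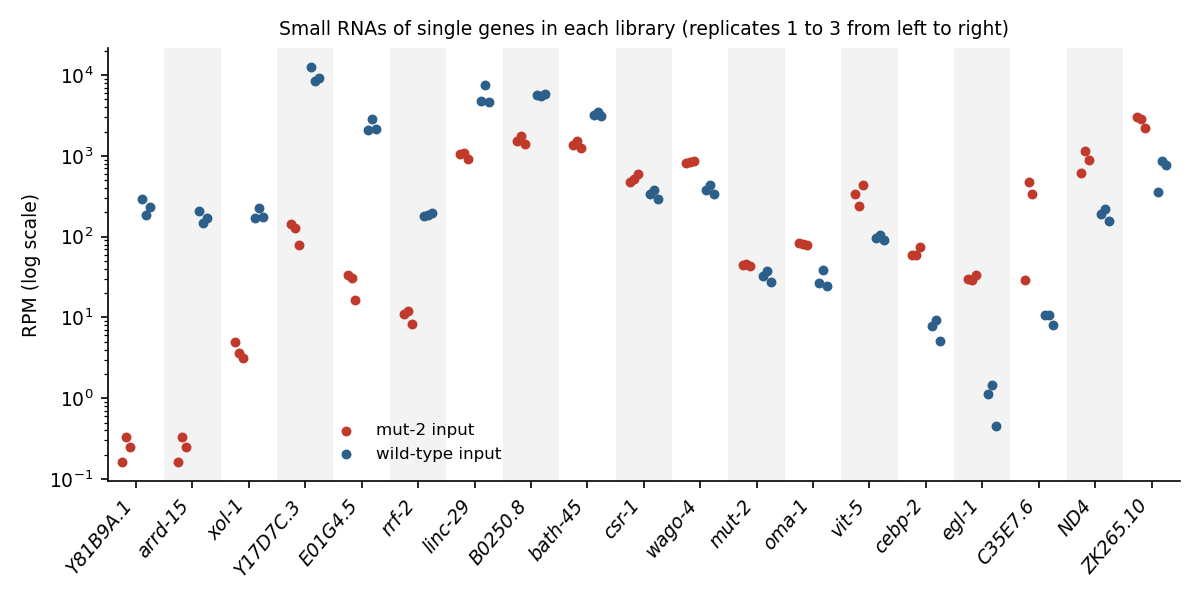
RPM in each of the 3 *mut-2* inputs (left of each pair, red) and 3 wild-type inputs (right, blue) for 19 genes of the text, on a log scale. *Y81B9A.1* and *arrd-15* lie below 0.4 RPM in every *mut-2* library, *bath-45* keeps between 1269 and 1512 RPM in *mut-2*, and C35E7.6 shows 1 low and 2 high *mut-2* libraries.

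Genes used as examples of ERGO-1 targets fell together. The list had 5 members, all were tested, and all 5 were lower, with a median log2 change of -5.26. Over all features with 10 RPM 29.7% were lower. The list was chosen with earlier results of these data known, so its count is no test of the pathway. Their summed RPM was 258, 247 and 172 in *mut-2*, against 8518, 8295 and 7608 in wild-type, 36.1-fold lower with no overlap. E01G4.5 (WBGene00008447, chromosome II, 13472401 to 13473995) had 33.3, 30.7 and 16.6 RPM in *mut-2*, against 2120, 2880 and 2138 RPM in wild-type (log2 change -6.82 ± 0.35, adjusted p = 1.08e-07, edgeR). The pseudogene E01G4.7 (chromosome II, 13477471 to 13478929) had 90.0, 81.1 and 46.9 RPM in *mut-2*, against 2309, 2107 and 2199 RPM in wild-type. The others were K02E2.6 at -5.90, the F-box gene *fbxb-97* at -4.33 and the pseudogene H16D19.4 at -4.23 on the log2 scale. K02E2.6 has an exon that overlaps another gene.

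The 4 genes listed as examples of nuclear RNAi targets were also lower, against 29.7% over all features with 10 RPM, but kept unequal amounts. This list too was chosen with earlier results of these data known, so its count is no test. *xol-1*, the switch gene of X chromosome dosage and sex (WBGene00006962, chromosome X, 8041327 to 8044409), had 4.92, 3.61 and 3.20 RPM in *mut-2*, against 173, 226 and 175 RPM in wild-type (log2 change -5.96 ± 0.24, adjusted p = 2.73e-08, edgeR). F15D4.5 had 166, 156 and 173 RPM in *mut-2*, against 2656, 2398 and 2556 RPM in wild-type, and C38D9.2 had 103, 113 and 112 RPM in *mut-2*, against 943, 713 and 866 RPM in wild-type. *bath-45*, a BTB and MATH domain gene (WBGene00009247, chromosome II, 13123038 to 13124789), had 1362, 1512 and 1269 RPM in *mut-2*, against 3216, 3511 and 3121 RPM in wild-type (log2 change -1.59 ± 0.19, adjusted p = 5.22e-05, edgeR). Thus *xol-1* kept 2.04% of its wild-type RPM and *bath-45* 42.1%. In a fit over all 36 libraries the log2 change of *bath-45* was -0.96, which is under 2-fold.

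Large gene families were among the MUT-2-dependent genes. The *fbxb* family encodes F-box proteins, adaptors of ubiquitin ligases that have expanded in *C. elegans*. The table holds 104 *fbxb* genes, 73 were tested, and all 73 had a negative log2 change. Their summed RPM over the whole family was 622, 650 and 567 in *mut-2*, against 4416, 5111 and 4584 in wild-type, 7.67-fold lower. Of the 36 that reached 10 RPM, all 36 were called lower, but 32 of them reached 10 RPM in wild-type only. *fbxb-85* had 6.56, 6.07 and 6.02 RPM in *mut-2*, against 466, 409 and 448 RPM in wild-type (log2 change -6.48, adjusted p = 1.81e-08, edgeR). The *fbxa* family of F-box genes had 170 members, 92 tested and 83 of these negative. Its summed RPM was 945, 992 and 951 in *mut-2*, against 6192, 5636 and 5857 in wild-type, and 48 of 58 members with 10 RPM were lower and 1 was higher, with 40 of the 58 at 10 RPM in wild-type only. *fbxa-120* had 10.0, 9.35 and 7.13 RPM in *mut-2*, against 530.4, 462 and 616 RPM in wild-type.

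Other expanded families followed at smaller ratios. Genes with MATH domains, which include the *bath* genes that join MATH and BTB domains, had 73 members and 56 tested, 48 of them negative. Their summed RPM was 3690, 3947 and 3543 in *mut-2*, against 11325, 12394 and 10898 in wild-type (3.10-fold), and 25 of 37 members with 10 RPM were lower and 2 higher. *bath-20* had 807, 839 and 768 RPM in *mut-2*, against 4121, 5116 and 4212 RPM in wild-type. Nuclear hormone receptor (*nhr*) genes, transcription factors of a ligand-binding type, summed to 1455, 1521 and 1446 RPM in *mut-2*, against 4347, 4669 and 3929 RPM in wild-type, with 30 of 43 lower and 1 higher. *nhr-15* had 17.5, 13.6 and 10.2 RPM in *mut-2*, against 1191, 1302 and 1132 RPM in wild-type (log2 change -6.79, adjusted p = 3.18e-08, edgeR). Chemoreceptor genes, which are transcribed in sensory neurons, had 1366 members but only 35 with 10 RPM, and 19 of the 35 were lower and 1 higher. C-type lectin genes, many of which respond to pathogens, had 7 of 14 lower and 2 higher. Over all features at this level 29.7% were lower and 11% higher. Members at 10 RPM in wild-type only, which passed through the genotype where they were high, numbered 12 of 37 MATH domain, 22 of 43 *nhr*, 17 of 35 chemoreceptor and 7 of 14 C-type lectin genes, so none of these counts is a test of the family.

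Of 81 histone genes 55 reached 10 RPM, 14 (25.5%) were lower and 2 higher, a share near or below the 29.7% and 11% over all features, and the median of the 55 was -0.06, which turned to 0.27 with library size as the scale. The number of lower members was 5 with that scale. Summed RPM was 2291, 2281 and 2180 in *mut-2*, against 5820, 5229 and 5197 in wild-type. The falls of 2 linker histone genes together were slightly larger than this fall of the sum. *his-24*, a histone H1 gene whose exon overlaps another gene, had 55.3, 57.5 and 47.3 RPM in *mut-2*, against 2042, 1610 and 1854 RPM in wild-type (log2 change -5.44, adjusted p = 2.99e-08, edgeR). *hil-8*, an H1-like gene, had 147, 175 and 112 RPM in *mut-2*, against 1864, 1670 and 1452 RPM in wild-type (log2 change -3.86, adjusted p = 2.85e-07, edgeR). Core histone genes occur in near-identical copies, and reads that match several copies could have been placed on any of them.

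Collagen genes, which encode the cuticle, had calls in both directions: of 28 with 10 RPM, 10 were lower and 10 higher, but 11 of the 28 reached 10 RPM in *mut-2* only and 9 in wild-type only. The share of lower members (35.7%) was near the 29.7% over all features, of which 11% were higher. Summed over 163 members they had 615, 546 and 671 RPM in *mut-2*, against 1395, 1097 and 1381 RPM in wild-type. *col-45* had 1.15, 0.656 and 0.614 RPM in *mut-2*, against 135, 98.0 and 108 RPM in wild-type (log2 change -7.46 ± 0.25, adjusted p = 1.81e-08, edgeR). With library size as the scale 9 collagens were lower and 17 higher, against 27.5% and 28.3% over all features with 10 RPM.

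**Figure D5:**
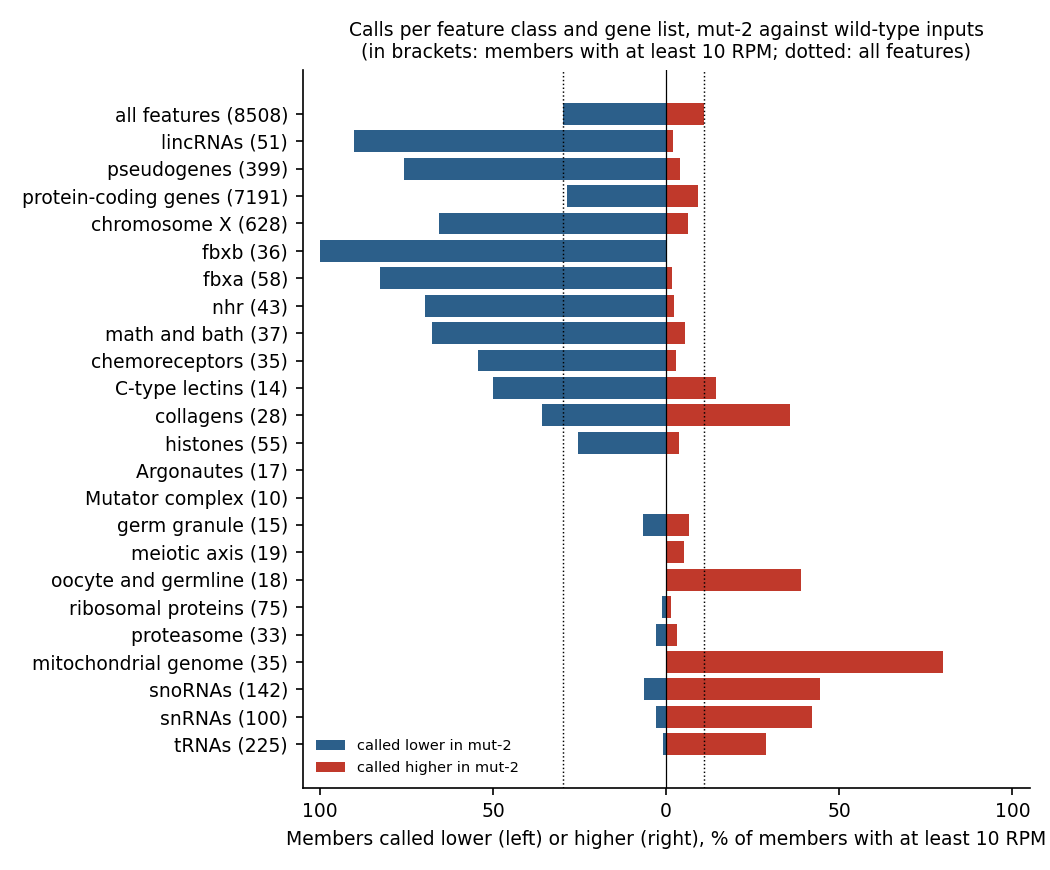
Percentage of members with at least 10 RPM that were called lower (left) or higher (right) in *mut-2* inputs, for all features, feature classes, chromosome X and gene lists, with the number of such members in brackets and dotted lines at 29.7% and 11%, the values over all features. Bars reach 100% lower for *fbxb*, 90.2% lower for lincRNAs and 80% higher for the mitochondrial genome.

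The share of features called lower was largest on chromosome X, while the autosomes lay around the 29.7% over all features. Without structural RNAs, chromosome X had 1.75%, 2.20% and 1.97% of all counts in *mut-2*, against 6.77%, 7.02% and 6.54% in wild-type. Of its 628 features with 10 RPM, 412 (65.6%) were lower and 39 higher, with a median log2 change of -2.47, but 81 of them reached 10 RPM in *mut-2* only and 301 in wild-type only. Over its 1390 tested features the median was -1.25, and 1000 were negative. The next share was on chromosome V, where 454 of 1233 (36.8%) were lower, followed by chromosome II with 473 of 1441 (32.8%), and the autosomes I, III and IV had 25.7%, 24.9% and 27.6%. On chromosome V 370 of the 1233 reached 10 RPM in wild-type only, and on chromosome II 361 of the 1441 did. Counts on chromosome III were 13.1% in *mut-2* and 13.6% in wild-type and overlapped (p = 0.5, two-sided exact permutation test). Protein-coding genes that carry only a sequence name were called lower more often (43.8% of 2423) than those with a gene symbol (20.8% of 4768), a difference that was not tested. Of these, 798 of the 2423 and 732 of the 4768 reached 10 RPM in wild-type only, where lower genes are high. The filter therefore has a part in the difference.

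Genes of the small RNA pathways themselves were mostly not called with TMM. With library size as the scale 2 of 17 Argonaute genes, 4 of 10 Mutator complex genes and 6 of 12 RNA-dependent RNA polymerase and Dicer complex genes were called higher. Over all features with 10 RPM 29.7% were lower and 11% higher with TMM, and 27.5% and 28.3% with library size. Of the 17 Argonaute genes with 10 RPM, 0 were called in either direction by edgeR and 0 by DESeq2, with 8 higher and 1 lower at an unadjusted p under 0.05 and a median log2 change of 0.31 (0.64 with library size as the scale). *csr-1* had 474, 515 and 599 RPM in *mut-2*, against 340.0, 384 and 296 RPM in wild-type (log2 change 0.31 ± 0.19, adjusted p = 0.177, edgeR). *wago-4*, a WAGO of germline inheritance, had 813, 851 and 869 RPM in *mut-2*, against 375, 437 and 336 RPM in wild-type, which is 0.81 ± 0.18 on the log2 scale (adjusted p = 0.00333, edgeR) and under 2-fold, but 1.14 with library size as the scale. The same was true of *wago-1* at 0.97 ± 0.20 (adjusted p = 0.00212, edgeR), which passed 2-fold with library size as the scale (1.30) and without wild-type replicate 2 (1.15), *mut-2* replicate 1 (1.06) or *mut-2* replicate 2 (1.04). Of 10 Mutator complex genes 0 were called by edgeR and 1 was higher by DESeq2, with 6 higher and 1 lower at an unadjusted p under 0.05. Among them were *mut-7*, an exonuclease gene, at 0.87 and *mut-16*, which encodes the scaffold of the foci, at 0.63. The exception among RNA-dependent RNA polymerases was *rrf-2* (WBGene00004509, chromosome I, 12098671 to 12106112), the next gene to Y47H10A.5 in the table's coordinates. It had 11.15, 12.14 and 8.36 RPM in *mut-2*, against 180.1, 184 and 198 RPM in wild-type (log2 change -4.50 ± 0.19, adjusted p = 3.49e-08, edgeR). Its relative *rrf-1*, which makes WAGO-class 22G-RNAs, had 236, 261 and 259 RPM in *mut-2*, against 169, 186 and 154 RPM in wild-type (log2 change 0.24, adjusted p = 0.211, edgeR). *ego-1* was at 0.69. Of 15 germ granule genes, *meg-4*, a P granule gene, was lower (24.6, 20.7 and 24.8 RPM in *mut-2*, against 77.3, 59.8 and 84.6 RPM in wild-type) and the helicase gene *glh-3* was higher at 1.04, which was under 2-fold without wild-type replicate 3 (0.90), wild-type replicate 1 (0.94) or *mut-2* replicate 3 (0.96).

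Small RNAs on housekeeping genes gave few calls with TMM, against 29.7% lower and 11% higher over all features with 10 RPM. Of 75 cytosolic ribosomal protein genes 1 was lower and 1 higher, with a median log2 change of 0.23, and of 33 proteasome genes 1 was lower and 1 higher, with a median of 0.78. With library size as the scale 24 proteasome genes were called higher, and their summed RPM was 4752, 4899 and 5112 in *mut-2*, against 2044, 2770 and 2042 in wild-type. Of 19 synaptonemal complex and meiotic axis genes 1, *syp-4*, was higher at 1.10 (edgeR), and at 0.88 without *mut-2* replicate 3 and 0.99 without wild-type replicate 3, and just under 2-fold without wild-type replicate 1. With library size as the scale 11 of the 19 were called higher, and 28.3% of all features with 10 RPM were higher on that scale.

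Genes that rose most by fold included *egl-1*, the BH3-only activator of programmed cell death (WBGene00001170, chromosome V, 14431310 to 14432359). It had 30.2, 28.7 and 33.5 RPM in *mut-2*, against 1.13, 1.47 and 0.451 RPM in wild-type, 30.3-fold higher with tight replicates in *mut-2* (log2 change 4.53 ± 0.31, adjusted p = 9.68e-07, edgeR). F57F4.2 had 20.5, 17.2 and 9.59 RPM in *mut-2*, against 0.412, 0.790 and 0 RPM in wild-type (4.81 ± 0.57). *cebp-2*, a transcription factor gene of the C/EBP family, had 60.0, 58.7 and 74.3 RPM in *mut-2*, against 7.93, 9.37 and 5.11 RPM in wild-type (2.77 ± 0.22, adjusted p = 2.94e-06, edgeR). The *mut-2* libraries disagreed for a pair of genes. C35E7.6 had 29.5, 472 and 337 RPM in *mut-2*, against 10.8, 10.7 and 7.97 RPM in wild-type, and *aps-3*, a clathrin adaptor subunit gene, had 55.1, 280.0 and 309 RPM in *mut-2*, against 17.4, 20.4 and 15.8 RPM in wild-type. *mut-2* replicate 1 was low for both, and with each library left out in turn their log2 changes ran from 4.02 to 5.04 and from 2.83 to 3.73. *msrp-3* was the last of the 6, with 11.3, 14.8 and 10.6 RPM in *mut-2*, against 1.03, 0.677 and 1.20 RPM in wild-type.

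Among called genes without an overlapping exon, the largest rises in RPM were mostly on structural RNAs and the mitochondrial genome. The 5.8S rRNA gene copy *rrn-2.1* (chromosome I, 15064301 to 15064453) had 7777, 6837 and 6400 RPM in *mut-2*, against 1417, 1994 and 3681 RPM in wild-type (log2 change 1.21 ± 0.35, adjusted p = 0.0121, edgeR), but 0.91 without wild-type replicate 1, which ends the call. The snoRNA gene ZK265.10 (chromosome I, 8259437 to 8259498) had 3002, 2902 and 2243 RPM in *mut-2*, against 355, 857 and 767 RPM in wild-type (1.69 ± 0.34, adjusted p = 0.00166, edgeR). A second snoRNA gene, T10B9.11, had 1309, 1312 and 1094 RPM in *mut-2*, against 250.7, 386 and 394 RPM in wild-type. No *mut-2* library overlapped a wild-type library for these 3 genes. The strand and 5′ base of the reads were not used here, so fragments of these RNAs and 22G-RNAs on their genes cannot be told apart.

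Mitochondrial genes rose together, 28 of 35 with 10 RPM, against 11% over all features, with a median log2 change of 1.50 over the 35. Of the 35, 15 have an exon that overlaps another gene, and 6 reached 10 RPM in *mut-2* only. Of the 28 higher genes 14 have no overlapping exon. Among the mitochondrial genes *ND4*, a subunit of respiratory complex I, had 608, 1156 and 899 RPM in *mut-2*, against 191, 218 and 156 RPM in wild-type (1.90 ± 0.25, adjusted p = 0.00012, edgeR). The mitochondrial rRNA gene MTCE.7 had 975, 1207 and 988 RPM in *mut-2*, against 215, 267 and 488 RPM in wild-type. MTCE.2, a mitochondrial tRNA gene, had 1386, 1749 and 1326 RPM in *mut-2*, against 187, 564 and 631 RPM in wild-type, and its log2 change of 1.33 was 0.92 without wild-type replicate 1. MTCE.33, the other rRNA gene, was at 1.08 on the log2 scale, and at 0.89 without wild-type replicate 2 and 0.99 without *mut-2* replicate 2. The last of these 8 rises, F43E2.6, had 956, 1830 and 1394 RPM in *mut-2*, against 434, 536 and 560.1 RPM in wild-type, a log2 change of 1.10 that was 0.95 without wild-type replicate 1 and 0.96 without *mut-2* replicate 2. Among snoRNAs with 10 RPM 63 of 142 were higher and 9 lower, and among snRNAs 42 of 100 were higher and 3 lower, against 11% higher and 29.7% lower over all features. Members at 10 RPM in *mut-2* only, where higher genes are high, numbered 25 of 142 snoRNAs, 35 of 100 snRNAs and 43 of 225 tRNAs. None of these counts is therefore a test of the class. The tRNA calls depended on which libraries were used. Of 225 tRNAs, those of the mitochondrial genome included, 65 were higher and 2 lower, but without wild-type replicate 2 57 were higher and 59 lower, and with the 4 libraries whose names end in "-2" 162 were higher.

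Tissue lists gave the following values, to be read beside 29.7% lower and 11% higher over all features with 10 RPM. Of 18 germline and oocyte regulator genes with 10 RPM 7 were higher, with a summed RPM of 3904, 3992 and 3731 in *mut-2*, against 1596, 2069 and 1542 in wild-type. They were *oma-1*, *oma-2*, *mex-5*, *pos-1*, *lin-41* and *gld-2*, which control translation in oocytes and embryos, and *rme-2*, the yolk receptor. *oma-1* had 82.5, 81.4 and 78.9 RPM in *mut-2*, against 26.7, 38.8 and 24.5 RPM in wild-type (log2 change 1.09 ± 0.19, adjusted p = 0.000638, edgeR). Of the 7 all but *oma-2* were under 2-fold without wild-type replicate 1 (0.89 to 0.99) and without wild-type replicate 3 (0.86 to 0.96), and *lin-41* (0.93) and *gld-2* (0.87) also without *mut-2* replicate 3. None of the 7 passed 2-fold when wild-type replicate 2 was the only wild-type library, a fit in which the lone library is assumed to vary like the *mut-2* libraries. With library size as the scale 14 of the 18 were called higher, against 28.3% of all features with 10 RPM. Of 8 intestinal genes 4 were higher, all yolk protein genes. *vit-5* had 341, 237 and 434 RPM in *mut-2*, against 95.0, 106 and 89.7 RPM in wild-type (1.47 ± 0.24, adjusted p = 0.000547, edgeR), *vit-3* and *vit-4*, which are near-identical copies, were at 1.87 and 1.92, and *vit-6* was at 1.03, or 0.83 without wild-type replicate 1, 0.99 without *mut-2* replicate 1 and 0.96 without *mut-2* replicate 3. *vit-2* did not pass the test, with 529, 457 and 451 RPM in *mut-2*, against 395, 320.3 and 474 RPM in wild-type. The defining intestinal genes *elt-2* and *ges-1* had at most 2.71 RPM in any of the 6 inputs. The 9 muscle genes summed to between 254 and 321 RPM in *mut-2* and between 131 and 305 RPM in wild-type, and of the 8 with 10 RPM 0 were called by edgeR or DESeq2 (1 higher and 1 lower at an unadjusted p under 0.05). Of 5 neuronal genes with 10 RPM 4 were lower, *rab-3*, *unc-31*, *ric-4* and *egl-21*, against 29.7% over all features, and 4 of the 5 reached 10 RPM in wild-type only. The 10 on the list summed to between 51.9 and 63.3 RPM in *mut-2* and between 98.8 and 127 RPM in wild-type. Major sperm protein genes did not reach 10 RPM in either genotype, with sums of 101, 124 and 84.6 RPM in *mut-2*, against 85.7, 52.0 and 55.9 RPM in wild-type. Of 7 *spe* and *fer* genes, which act in spermatogenesis, 4 were lower, all of them at 10 RPM in wild-type only, and *spe-39* was higher (1.22 ± 0.28, adjusted p = 0.00331, edgeR, and 0.96 without wild-type replicate 3). *spe-41*, a sperm calcium channel gene, averaged 4.45 ± 0.307 RPM in *mut-2* and 87.3 ± 8.82 RPM in wild-type. The part that tissue makeup plays in any of these differences was not tested.

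The same loss was read in animals that also lacked *hrde-2* or *simr-1*. These comparisons share no library with that of *mut-2* and wild-type. In *mut-2; hrde-2* against *hrde-2*, 2061 of 13087 tested genes were lower (15.7%, or 25.3% of those with 10 RPM) and 608 higher (4.65%, or 7.46%). In *simr-1 mut-2* against *simr-1*, 2146 of 12935 were lower (16.6%, or 25.8%) and 650 higher (5.03%, or 7.82%), here with another *mut-2* allele, so that allele and background cannot be told apart. The lower genes shared with *mut-2* against wild-type numbered 1783 for the *hrde-2* background, 71.6% of those lower against wild-type and 86.7% of those lower against *hrde-2*, counted over genes tested in both. For the *simr-1* background they numbered 1819, 72.5% and 84.8%. Shared rises were fewer. They numbered 424 in the *hrde-2* background, 45.3% of the rises against wild-type and 69.7% of those against *hrde-2*, and 267 in the *simr-1* background, 28.6% and 41.1%. In all 3 comparisons 1584 genes were lower and 165 higher. These overlaps were counted with TMM alone, and the number of rises in each background depended on the scale. Of the 36 *fbxb* genes called lower, 19 were also called lower in the *hrde-2* background and 13 in the *simr-1* background. Of the 28 mitochondrial genes called higher, 5 were also called in the *hrde-2* background and 3 in the *simr-1* background. A change short of the 2-fold threshold was common there: 898 of the 936 higher genes had a positive log2 change in the *hrde-2* background, and 839 of 934 had one in the *simr-1* background.

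The size of the effect was compared between backgrounds in 1 edgeR fit over the 18 inputs, an alternative added after the data had been seen. Of the 2526 lower genes, 762 (30.2%) changed by an amount that differed at least 2-fold in the *hrde-2* background (adjusted p of at most 0.05), and 314 of these fell more against wild-type. In the *simr-1* background 656 (26%) differed, 219 of them with the larger fall against wild-type. Of the 936 higher genes 34 and 106 differed, all with the larger rise against wild-type, and 26 and 84 of these were structural RNA features or overlapped one. The fit used TMM alone, so the part of scaling in these differences was not tested. With library size as the scale, the higher genes numbered 4275 instead of 608 against *hrde-2* and 3853 instead of 650 against *simr-1*. Against wild-type they numbered 2407 instead of 936. C38D9.2 did not fall in the *hrde-2* background. It averaged 159 ± 2.27 RPM in *mut-2; hrde-2* and 84.0 ± 22.4 RPM in *hrde-2* (SD, n = 3 each), with all 3 *mut-2; hrde-2* libraries above all 3 *hrde-2* libraries in RPM and a fitted log2 change of 0.11, and its change against wild-type differed from this by -3.44 ± 0.27 (adjusted p = 1.29e-07, edgeR). F15D4.5 averaged 202 ± 11.5 RPM in *mut-2; hrde-2* and 231 ± 49.5 RPM in *hrde-2* (SD, n = 3 each), and its fitted fall there just passed the 2-fold threshold (adjusted p = 0.000374, edgeR with TMM). In the *simr-1* background C38D9.2 averaged 219 RPM in *simr-1 mut-2* and 1249 RPM in *simr-1*, and F15D4.5 averaged 286 RPM and 3201 RPM. *bath-20*, *hil-8*, *linc-29*, T09F5.12 and B0250.8, which kept between 8.71% and 27.6% of their RPM in *mut-2* against wild-type, fell further in both other backgrounds.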

How the data were processed

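Small RNA inputs of *mut-2* and wild-type were compared. The authors trimmed reads, mapped them with Bowtie2 2.5.0 to genome release WS258 and counted them on exons with featureCounts of Subread 2.0.1, splitting a read that overlapped several genes, with an annotation whose name says that overlaps with miRNAs had been left out. The deposited values are therefore estimated counts, not the whole counts the tests were planned for, 10.5% of the non-zero values not whole, and were rounded here. Gene names came from Ensembl release 115 (30911 of 31106 features matched) and, for 1632 features, RefSeq.

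Genes with 10 or more counts in 3 or more libraries were tested with edgeR 4.0.16 (R 4.3.3, TMM, quasi-likelihood F test, Benjamini-Hochberg), with DESeq2 1.42.0 as an alternative. In simulated data from these 13558 genes all 200 genes changed 4-fold, up or down, were recovered, with 8 false calls. Recovery with falls as many and as deep as those called here was not tested. The same test was run in the *hrde-2* and *simr-1* backgrounds. Shares were compared with exact permutation tests (Python 3.11.15, scipy 1.17.1). Intervals of count ratios are exact and cover counting error only.

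No 2 libraries of a group agreed within sampling noise. Alternatives changed the scaling, the filter, the tool and the libraries. Members and lists were chosen with earlier results of these data known. Named by rule were, among called genes, the 6 largest falls and 6 largest rises by fold among protein-coding genes, the 8 largest falls and rises in RPM (no exon overlap, no overlap of libraries), and among all genes the 3 members of each class or list with the highest RPM, and *mut-2* and *hrde-1*. Other members of a list were named after their values were seen.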

Additional observations from a re-analysis of the deposited data

Results flagged for a closer look

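Genes are given here whose change in *mut-2* against wild-type differed at least 2-fold from the change in another background (1 edgeR fit over 18 inputs, with a quasi-likelihood F test of the interaction and Benjamini-Hochberg adjustment over 14861 genes, largest adjusted p 0.0451). Each value is the log2 change against wild-type minus the log2 change in the other background, so a negative value for a gene that fell means a larger fall against wild-type. *simr-1 mut-2* carries another *mut-2* allele, so that allele and background cannot be told apart there. The fitted differences below used TMM, and no difference was fitted with library size as the scale.

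Against the *hrde-2* background, a larger fall against wild-type was found for Y81B9A.1 (-5.41 ± 1.03, SE), *arrd-15* (-4.77), C38D9.2 (-3.44), F15D4.5 (-3.32), *meg-4* (-2.53), *unc-31* (-2.38), *spe-41* (-2.15), E01G4.7 (-1.47), Y17D7C.3 (-1.39) and *fbxb-97* (-1.29). For Y81B9A.1 and *arrd-15* the *hrde-2* inputs themselves averaged 8.85 and 13.9 RPM, against 238 and 176 RPM in wild-type inputs. C38D9.2 and *meg-4* ran in opposite directions in RPM, in every library: *mut-2; hrde-2* inputs were higher than *hrde-2* inputs by 75.2 and 17.4 RPM on average, while *mut-2* inputs were lower than wild-type inputs by 731 and 50.6 RPM. *prg-1*, the gene of the piRNA-binding Argonaute, differed by -1.03, with fitted log2 changes (TMM) of -0.16 against wild-type and 0.83 against *hrde-2*. It averaged 1011 RPM in *mut-2; hrde-2* and 325 RPM in *hrde-2*, over 2-fold in RPM, against 670.5 RPM in *mut-2* and 594 RPM in wild-type.

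Smaller falls against wild-type than against *hrde-2* were found for *hil-8* (3.45), *bath-20* (2.67), T09F5.12 (1.71), *linc-29* (1.69), B0250.8 (1.48) and *egl-21* (1.28), and the rise of *msrp-3* was larger against wild-type (2.67).

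Against the *simr-1* background, falls were smaller against wild-type for *linc-29* (3.74), *hil-8* (3.04), *bath-20* (3.02), W03H9.2 (2.94), *bath-45* (2.92), T09F5.12 (2.83), B0250.8 (2.47), E01G4.5 (1.64), F37D6.3 (1.63), *his-24* (1.61) and *fbxb-85* (1.45). Larger falls against wild-type were those of *arrd-15* (-4.81), *unc-31* (-1.70) and *spe-41* (-1.03). The rise of *cebp-2* was larger against wild-type (1.55). *linc-29* averaged 183 RPM in *simr-1 mut-2* and 10380.5 RPM in *simr-1*, against 1013 RPM in *mut-2* and 5645 RPM in wild-type.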

How the results depend on the processing

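The number of lower genes stayed within 1.5 times of 2526 in every alternative except a minimum of 50 RPM (1214). The 936 higher genes became 2407 with library size as the scale, 2039 with mapped reads, 3725 with all 36 libraries in 1 fit, 544 among genes without overlapping exons and 576 at 50 RPM. With each library left out in turn they numbered 688 to 1521 (2480 to 2603 lower), the highest without wild-type replicate 2 and the lowest without wild-type replicate 3. In *mut-2; hrde-2* against *hrde-2*, the 608 higher genes became 4275 with library size and 3487 with mapped reads, and in *simr-1 mut-2* against *simr-1* the 650 became 3853 and 2391. The scaling by mapped reads in these 2 comparisons was chosen after seeing the data. Counted without structural RNAs, the share of counts was 14.6 percentage points higher in *mut-2* than in wild-type for protein-coding genes, 2.36 for chromosome I, 3.97 for chromosome III and 1.10 for chromosome IV, where it was lower over all counts. Of 57 named genes called lower 1 lost its call in an alternative (*bath-45*), and of 37 called higher 18 did. Scaling to miRNA counts was not run, since the tables hold 1 miRNA feature.

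Replicate numbers did not pair the libraries: deviations of same-numbered libraries correlated at -0.07, -0.16 and 0.01, and those of different numbers at -0.09 to 0.17. With the replicate block, 2515 genes were lower and 1035 higher, 2513 and 933 of them as without it.

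With 3 libraries a genotype, a gene near 10 RPM rests on about 61 to 97 counts. Strand and length of the reads were not used, and the amount of small RNA per animal was not measured.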

Other observations

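Grouped by the prefix of the gene symbol, 55 prefixes had at least 10 members with 10 RPM, and the members called lower ranged from 0 to all of them. The prefix *lido*, not on any list above, had 9 of 11 lower, and *fbxc*, another family of F-box genes, had 13 of 17 lower with a median log2 change of -3.26 over the 17. Homeobox genes (*ceh*) had 9 of 15 lower and *egl* genes, named for egg laying, 6 of 11. Over all features with 10 RPM 29.7% were lower. Members at 10 RPM in wild-type only, where lower genes are high, numbered 6 of 11 *lido*, 10 of 17 *fbxc*, 7 of 15 *ceh* and 5 of 11 *egl* genes. Prefixes with few lower members included *cdc*, cell division genes, with 5 of 14 higher, *mdt*, Mediator genes, with 4 of 19 higher, and *eif*, translation initiation genes, with 2 of 25 higher, against 11% over all features. Their median log2 changes were 0.82, 0.71 and 0.76 (1.16, 1.04 and 1.09 with library size as the scale). These prefixes were sorted after the values were seen, and none of the counts is a test.

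Protein-coding genes that fell were shorter in exonic length than those that were not called, with a median of 1239.5 bases against 1632 bases, and so were those that rose, with 1243 bases. Of the lower genes 48.3% had a gene symbol, against 73.9% of the uncalled genes and 71.0% of the higher genes. These are descriptions of genes with at least 10 RPM, and RPM was not divided by length.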
